A study of Mus musculus with 9 samples.

Results

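Acinar cells make and secrete the digestive enzymes of the pancreas, and 37 genes that mark them were followed in RNA-seq libraries of mouse pancreatic neuroendocrine tumors (PanNETs) and of normal islets. They were picked from the deposited table by gene symbol, and all 37 were found among its 54347 genes. The 37 comprised 22 digestive enzymes or enzyme precursors, 8 granule or other secreted proteins, 3 further acinar genes (Erp27, Aqp8 and Aqp12) and the 4 transcription factors Ptf1a, Rbpjl, Bhlha15 and Nr5a2. Their levels were compared across the samples, and the abundant enzymes were set beside the transcription factors to see whether both followed the same course over the libraries.

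The tumors came from bi-transgenic INS-p25OE mice, in which Ins2-rtTA drives tetOp-p25GFP in insulin-producing cells once doxycycline is given in the drinking water from weaning. Libraries M1, M2 and M3 were from functional (insulin-secreting) tumors and M4, M5 and M6 from non-functional tumors, while NI1, NI2 and NI3 were labelled as normal islets of C57BL/6 mice. The controls of the study were littermates without transgenes, all mice were kept on the C57BL/6 background, and transgene-negative animals shared cages with the bi-transgenic ones. Whether the islets were from mice that drank doxycycline, and the age at sampling, were not given for single samples. M2 was from a female and the other 8 libraries from males, so sex and tumor could not be told apart for M2. Each library was described as a biological replicate, with 3 in each group.

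In an acinar cell, enzyme precursors are packed into zymogen granules and released into the duct, and in the gut trypsin activates the others. Ptf1a, a basic helix-loop-helix factor, binds DNA together with Rbpjl and switches on the enzyme genes. Nr5a2, a nuclear receptor, works beside that complex, and Bhlha15 (Mist1) builds up the secretory apparatus. Acinar cells surround the islets, and islet isolation and tumor dissection can carry some along. Bhlha15 and Nr5a2 are also expressed in other secretory or endodermal cells, whereas Ptf1a and Rbpjl are close to restricted to acinar cells in the adult pancreas.

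The 9 libraries held between 36468280 and 63637175 estimated counts. Levels are given as CPM, counts relative to the TMM-scaled library size, and 3 reads, used as the floor below which a level was not read, corresponded to between 0.0425 and 0.119 CPM. Mitochondrial genes took 32.1% of the counts in M4 and between 1.76% and 8.41% in the others. The library labelled NI1 went against its label. Cdk5r1, the gene whose product the transgene encodes in truncated form, was at 280 CPM in it against 18.4 in NI2 and 12.5 in NI3, and between 149 and 401 CPM in the 6 tumors. Its profile was nearest to that of M6 (r = 0.99 on log2(CPM + 1) over 15532 genes, a description only), and the pair NI2 and NI3 came next (r = 0.98). Of 698 genes at least 4-fold apart between M6 and the mean of NI2 and NI3, 95.7% had a level in NI1 that lay between these values. Counts of calls against islets are therefore given below with and without that library and M6, together with the main sizes without NI1, M6 or NI3, which held the highest enzyme levels.

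Some of the enzyme promoters share sequence motifs, which are described here and enter no level or test below. RefSeq promoter windows (GRCm38.p6, 250 bases before to 50 after the start) were found for 30 of the 37 genes. The PTF1 complex binds a pair of elements, an E-box (CANNTG) followed by TTTCCC, and such a pair with 1 to 18 bases between them was searched for on both strands. It was present in 4 of 18 enzyme promoters (22.2%), in none of the other 12 windows of the list and in 2.49% of the 27025 genes in the table. These 4 are all the windows of the list that held the pair. Both elements are in capitals and the bases between them in lower case, read from the strand on which the E-box comes first.
Ctrb1, at chr8:111691200-111691215 on the minus strand: CAGCTGtcctTTTCCC
Cela1, at chr15:100688014-100688029 on the minus strand: CACCTGcgctTTTCCC
Cel, at chr2:28563463-28563489, gene on the minus strand and pair on the opposite strand: CAGGTGtgggatggtccatttTTTCCC
Cpa1, at chr6:30639199-30639225, gene on the plus strand and pair on the opposite strand: CAGCTGggactactcattcggTTTCCC
The run in Ctrb1 began 205 bases before the start and that in Cela1 began 109 bases before it, and both had 4 bases between the elements. The Cpa1 run began 19 bases before the start and so crossed it. Among the other motifs searched, CACCTG was in 61.1% of enzyme promoters and 22.6% of all genes, TATAAA in 38.9% against 15.7%, and AAGGTCA, the core of the NR5A2 site, in 16.7% against 5.38%. CACCTG is one form of the E-box, so these counts overlap with those of CANNTG, which was in 83.3% and 74.99%. CAGCTG was in 27.8% and 18.3%, and TTTCCC alone in 44.4% and 27.9%. A match describes letters and does not show that a factor bound there.

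Several enzymes are members of families with near-identical copies, so reads could be split between them. The trypsinogens Try4 (chr6:41302269-41305532), Try5 (chr6:41311233-41316841), Try10 (chr6:41354105-41357914) and Prss2 (chr6:41521787-41525079) lie together in GRCm38. Their reading frames were each 741 bases long. Identity was 97.4% between Try4 and Try5, 95.4% between Try4 and Try10 and 90.01% between Prss2 and Try10. The first 30 coding bases, from the start codon on, show how close they are, with bases that differ from Prss2 in capitals.
Prss2: atgagtgcacttctgatcctagcccttgtg
Try4: atgagAgcactCctgTtcctGgcccttgtg
Try5: atgaAtTcactCctgTtcctGgcccttgtg
Try10: atgagtAcactCctgTtcctGgcccttgtg
Try4 and Try10 differed from Prss2 at 4 of these bases and Try5 at 5. Of the 75-base windows in the transcripts of Try4, 43.9% also occurred in a transcript of another gene, against 0.945% for Prss2. For the amylase Amy2a5 (chr3:113247178-113258837) the share was 47.8%, and its reading frame was identical over 1527 bases to that of Amy2a4, which is not among the 37. In 24 of the 37 genes no window was shared. Levels of Try4, Try5, Try10, Amy2a5 and Amy2b on their own are therefore uncertain. The share was smaller, but over 10%, for Ctrc (15.7%), Cela2a (14.3%), Klk1 (12.1%) and Cela3b (11.4%), whose levels are less certain to that extent. Ptf1a shared 32.6% of its windows with the antisense gene Ptf1aos, and the library kit does not mark strand, so their reads could not be told apart.

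Digestive enzymes differed by orders of magnitude among the libraries, and the order of the groups was functional tumors, then non-functional tumors, then islets. Summed over the 22 enzymes, the level was 1.27 CPM in M1, 1.64 in M2 and 1.53 in M3. It was 59.1 CPM in M4, 90.5 in M5 and 476 in M6. In the islets it was 831 CPM in NI1, 1035 in NI2 and 15397 in NI3. The groups did not overlap. NI3 stood far above the rest, 14.9-fold above NI2 and 32.3-fold above M6, and its enzyme reads were 1.23% of all counts in that library. In M1, M2 and M3 they came to 63, 116 and 84 reads. Functional tumors averaged 1.48 ± 0.19 CPM, non-functional tumors 209 ± 232 and the islets 5754 ± 8351 (SD, n = 3 each), so that in the last 2 groups the spread was wider than the mean. The islet mean was 933 CPM without NI3 and 8216 CPM without NI1, and that of the non-functional tumors was 74.8 CPM without M6 (n = 2 each). In such bulk samples, fewer acinar cells and less RNA per acinar cell cannot be told apart.

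**Figure D1:**
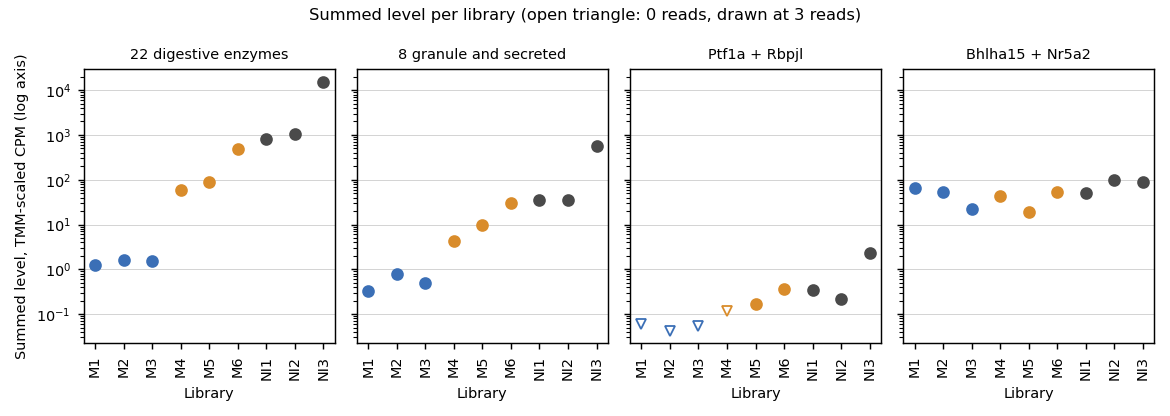
Summed TMM-scaled CPM per library on a log axis, for the 22 enzymes, the 8 granule and secreted proteins, Ptf1a with Rbpjl, and Bhlha15 with Nr5a2; blue points are functional tumors, orange non-functional tumors and grey islets, and open triangles mark 0 reads. Enzymes spanned 1.27 to 15397 CPM, whereas Bhlha15 with Nr5a2 stayed between 19.4 and 98.7 CPM.

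Pancreatic amylase, Amy2a5, which cleaves starch, held the largest share of the enzyme reads in the non-functional tumors and the islets. Its level was 0.242, 0.0991 and 0.0545 CPM in M1, M2 and M3, 25.6, 36.5 and 147 in M4, M5 and M6, and 346, 454 and 6620 in NI1, NI2 and NI3. Per kilobase of all annotated exons, the level in NI3 was 1666 CPM for Amy2a5, 1601 for Ctrb1 and 875 for Prss2. The exon length taken was 3973 bases for Amy2a5, whose reading frame has 1527, and 878 bases for Ctrb1. A shorter length for Amy2a5 would raise its value, so amylase and chymotrypsinogen were not ranked by it. Amy2b, a copy annotated as a pseudogene, reached 10.7 CPM per kilobase in NI3.

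Among the proteases, the chymotrypsinogen Ctrb1 had 2, 4 and 0 reads in M1, M2 and M3. It was at 6.02, 10.7 and 65.0 CPM in M4, M5 and M6, and at 82.0, 74.8 and 1406 CPM in NI1, NI2 and NI3. The trypsinogen Prss2, precursor of the enzyme that activates the others, had 0, 1 and 0 reads in the functional tumors. In M4, M5 and M6 it was at 2.18, 3.69 and 24.7 CPM, and in the islets at 34.0, 46.0 and 713 CPM. The carboxypeptidase Cpa1 had 1, 0 and 1 reads in M1, M2 and M3. It was at 2.34, 3.69 and 26.5 CPM in M4, M5 and M6 and at 40.1, 46.2 and 667 CPM in NI1, NI2 and NI3. M6 lay below each islet library for Ctrb1, Prss2 and Cpa1, but closer to NI1 and NI2 than NI3 did.

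Cela1, an elastase, went a different way in the functional tumors. It had 32, 45 and 43 reads in M1, M2 and M3, or 0.645, 0.637 and 0.782 CPM, each above the floor. There it made up 50.8%, 38.8% and 51.2% of the enzyme reads, against 3.48% to 5.27% in the other 6 libraries. Had it kept the ratio to the other enzymes seen in NI3, 1.45, 3.32 and 1.92 reads would have been counted. In M4, M5 and M6 Cela1 was at 2.97, 4.77 and 16.6 CPM, and in the islets at 33.3, 48.8 and 689 CPM. A few single libraries held a similar excess of another enzyme. M2 had 34 reads of the chymotrypsin-like gene Ctrl where 2.01 matched the NI3 ratio, and M3 had 18 reads of the ribonuclease Rnase1 where 0.941 did. Amy2a5 went the other way, with 12, 7 and 3 reads in M1, M2 and M3 where 38.5, 82.2 and 61.1 matched. The other enzyme reads in that ratio include those of Cela1. Without Cela1, the other 21 enzymes together had 31, 71 and 41 reads in M1, M2 and M3.

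Lipid-digesting enzymes followed the other enzymes. Pancreatic lipase, Pnlip, had 1, 1 and 12 reads in the functional tumors. Its level was 2.54, 1.92 and 23.9 CPM in M4, M5 and M6, and the islets had 39.8, 54.0 and 699 CPM. Its cofactor colipase, Clps, had 2, 0 and 1 reads in the functional tumors and 1.78, 4.30 and 8.34 CPM in the non-functional tumors. The islets had 17.1, 22.3 and 238 CPM of Clps. For Cel, the bile salt-activated lipase, M2 had 11 of the 14 reads found in functional tumors.

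Over the whole list, 35 of 37 genes had their highest level in NI3, and 31 had the highest of the 6 tumor levels in M6. In M1, M2 and M3 combined, 12 genes had no read and 9 more had 1 to 3. M6 was below every islet library for 30 genes. The median ratio of NI3 to NI2 over the 37 genes was 14.6 and that of NI3 to NI1 was 16.6.

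**Figure D2:**
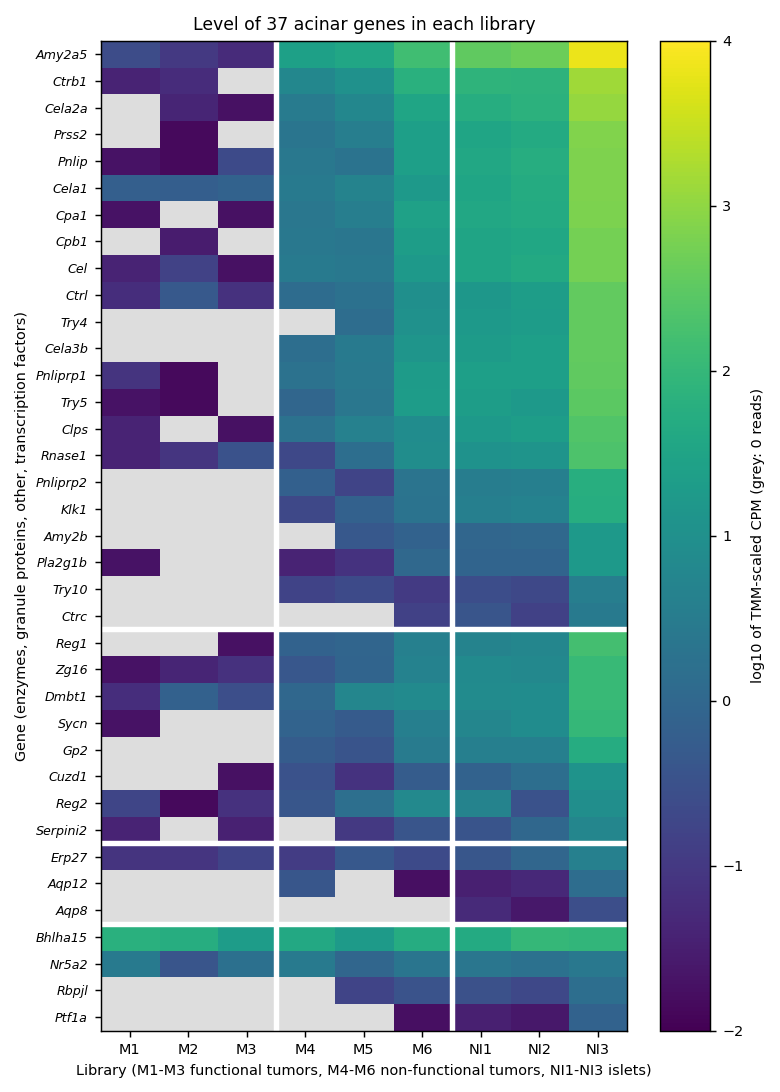
Level of each of the 37 genes (rows, by class and then by level in NI3) in each library (columns), as log10 of TMM-scaled CPM, with grey for 0 reads. Enzymes were near or at 0 in M1, M2 and M3 and highest in NI3, while Bhlha15 and Nr5a2 were present in all 9 libraries.

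Of the 37 genes, 26 reached 1 CPM in 3 or more libraries and entered the tests. Most of them passed through the islet libraries, where they were high, so the counts below describe these 26 and support nothing about the list by themselves. The 11 not tested were Ctrc, Try10, Amy2b, Pla2g1b, Cuzd1, Serpini2, Erp27, Aqp8, Aqp12, Ptf1a and Rbpjl. All comparisons against islets share the same 3 islet libraries.

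Between all 6 tumors and the islets, no member came under the adjusted p of 0.05 set for the quasi-likelihood test of edgeR, while 40 of all 15532 tested genes were called lower (0.258%) and 0 higher. At an unadjusted p under 0.05, 24 of the 26 were lower in tumors, against 9.14% of all genes. limma-voom called 0 members and 33 of all genes lower (0.212%). DESeq2 called 488 of all genes lower (3.14%) and 764 higher, but 0 members, with no p for 23 of the 26. In 22 of the 26 every tumor was below every islet library, against 3.17% of all genes, and without NI1 in 23, against 16.3%. The 4 lowest log2 fold changes were those of Amy2a5 (−6.14 ± 2.01, adjusted p = 0.168), Try4 (−6.02 ± 1.91, adjusted p = 0.165), Ctrl (−5.91 ± 1.47, adjusted p = 0.145) and Reg1 (−5.91 ± 1.66, adjusted p = 0.152), each ± SE from edgeR with 6 tumors and 3 islet libraries. The 4 highest were Dmbt1 (−4.05 ± 1.26, adjusted p = 0.163), Reg2 (−1.65 ± 1.44, adjusted p = 0.550), Bhlha15 (−0.91 ± 0.40, adjusted p = 0.241) and Nr5a2 (−0.25 ± 0.59, adjusted p = 0.848). The median was −5.47 over the 26 and 0.03 over all tested genes. Without NI3 the median over the 26 was −2.96, Amy2a5 was at −3.52 ± 1.88 (adjusted p = 0.639), 0 members were called, and members with an unadjusted p under 0.05 went from 24 to 2. Without NI1 the median was −5.97 and without M6 it was −7.31. The calls also depended on the fit and the libraries. Without M6, 6 members were called lower, among 0.889% of all genes, and without NI1 5 were, among 3.00%. Without both, 16 of the 19 then tested were, among 3.43%, and 18 of 26 were, among 0.605%, when the 2 tumor groups kept means of their own.

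Functional tumors against islets gave 11 members called lower by the same edgeR test, where 67 of all tested genes (0.431%) were called lower and 7 (0.0451%) higher, with 0 members higher. They were Amy2a5 and Clps (each with an adjusted p of 0.0309), Cela2a, Ctrb1, Cpa1, Prss2, Cel, Cpb1 and Sycn (0.0391), Pnliprp1 (0.0423) and Cela1 (0.0480). All but Sycn, a protein of the zymogen granule membrane, are enzymes or the cofactor colipase. Because the functional tumors held so few reads, the size of the difference is given as the mean islet level over the pooled level of the 3 tumors, with a 95% Poisson interval on the tumor reads, which covers counting error only. The interval leaves out the spread between islet libraries. Amy2a5, with 22 tumor reads, was 19709-fold higher in islets (13018 to 31449), but 3187-fold without NI3 and 28184-fold without NI1. Cela1, with 120 reads, was 375-fold higher (314 to 453), or 59.96-fold without NI3 and 539-fold without NI1. Ctrb1 was 15216-fold higher (6991 to 41463) on 6 reads, and Prss2 46364-fold higher (8321 to 1831283) on 1 read. Clps was 5407-fold higher (1850 to 26218) on 3 reads. Without NI3 these were 2291-fold for Ctrb1, 7011-fold for Prss2 and 1151-fold for Clps. In Cela3b, Pnliprp2, Try4, Klk1 and Gp2 no functional tumor held a read, so only a lower bound against 3 reads per library could be given: at least 2583-fold higher in islets for Cela3b, and at least 386-fold for Gp2, or at least 421- and 74.96-fold without NI3. The fitted median over the 26 was −12.46 on the log2 scale, −11.35 with these genes at their bound, and 0.02 over all genes. Without NI3 the median was −9.81. In 24 of the 26 the groups did not overlap, against 13.6% of all genes, and without NI1 in 25, against 25.3%. An unadjusted p under 0.05 and a lower level were found for 24, against 9.82%.

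This count of 11 moved with single libraries, as did the calls over all genes. It was 0 without M1, M2 or M3, where no gene of all those tested was called, 0 without M5 (0.150% of all genes lower) and 0 without NI2 (0.0195%). In those 5 fits the median over the 26 stayed between −13.01 and −12.44, and 24 had an unadjusted p under 0.05. The count was 9 without NI3 (0.110% of all genes), 14 without M4 (0.675%), 15 without M6 (0.610%) and 23 without NI1 (2.66%), the library that goes against its label. It was 17 of 19 without both M6 and NI1 (3.24%), and 0 by limma-voom (0.0579%). DESeq2 called 3 members and 781 of all genes (5.03%) lower and 775 higher, and gave no p for 21 members.

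In the non-functional tumors the same genes lay between, without a call. No member passed in the edgeR test against islets, and none of all tested genes was called lower or higher (0%). Here 23 of the 26 had an unadjusted p under 0.05 and lower levels, against 6.19% of all genes, and in 22 the groups did not overlap, against 7.28%. Without NI3 the 23 went to 5 and the median over the 26 from −4.46 to −1.95. limma-voom called 0 members and 0 of all genes, and DESeq2 called 1 member lower with no p for 21, among 152 of all genes lower (0.979%) and 242 higher. The lowest log2 fold changes were those of Amy2a5 (−5.15 ± 1.31), Try4 (−5.01 ± 1.89), Cela1 (−4.98 ± 1.23) and Ctrl (−4.97 ± 1.45), each with an adjusted p of 0.332. Without NI3 Amy2a5 was at −2.52 ± 0.71 (adjusted p = 0.782, edgeR). Dmbt1 (−3.15 ± 1.22, adjusted p = 0.332), Bhlha15 (−1.08 ± 0.49, 0.346), Reg2 (−0.69 ± 1.23, 0.800) and Nr5a2 (−0.09 ± 0.72, 0.960) were the highest. Without NI1, 4 members were called lower, among 1.04% of all genes, and without both M6 and NI1, 14 of 19, among 1.85%.

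Functional and non-functional tumors differed in the same genes by large ratios that did not pass the test. Summed enzymes were 1.27 to 1.64 CPM in the former and 59.1 to 476 CPM in the latter. No member and none of all tested genes was called by edgeR (0%), and the smallest adjusted p over all genes was 0.455. In 24 of the 26 the unadjusted p was under 0.05 with the functional tumors lower (5.58% of all genes), and in 22 the groups did not overlap (6.24%). limma-voom called 0 members and 0 of all genes. DESeq2 called 3 members lower with no p for 21, among 89 of all genes lower (0.573%) and 22 higher. By pooled reads, Prss2 was 1788-fold higher in the non-functional tumors (321 to 70631) on 1 functional read and Cpa1 951-fold (263 to 7850) on 2. Against 3 reads per library, Cela3b was at least 116-fold and Try4 at least 78.2-fold higher, although Try4 also had no read in M4. Cela1 was 11.8-fold higher (9.90 to 14.3) and Dmbt1 11.9-fold (9.39 to 15.3), the smallest of these ratios. Amy2a5 was 557-fold higher (368 to 888), chosen after its value was seen. Without M6 these were 247-fold for Amy2a5, 514-fold for Prss2, 264-fold for Cpa1, 5.65-fold for Cela1 and 8.33-fold for Dmbt1, and the bounds were 43.1-fold for Cela3b and 13.3-fold for Try4. Bhlha15 differed by 0.32 ± 0.48 on the log2 scale (adjusted p = 0.843, edgeR) and Nr5a2 by −0.35 ± 0.72 (adjusted p = 0.894).

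Ratios between enzymes within a library do not depend on scaling. For the enzymes with enough reads they were alike from M4 to NI3 although levels were not. For the 14 enzymes with at least 20 reads in each of M4, M5, M6, NI1, NI2 and NI3, the ratio to the remaining enzyme reads ranged over 1.32- to 3.18-fold among these 6 libraries (median 1.80), while their levels ranged over 134- to 365-fold (median 252). Among the 14, Ctrl had the smallest range and Clps the largest, with 175 reads in M5 where 55.1 matched the ratio in NI3. The enzymes with fewer reads ranged over 2.31-fold (Klk1) to 72.7-fold (Try4), with 0.5 added to each count. Amy2a5 took 31.0% of the enzyme reads in M6 and between 40.3% and 43.8% in the other 5. Amy2a4, which has the same reading frame and is not among these enzymes, had 5145 reads in M6 beside 8381 of Amy2a5. It had 3322 beside 20208 in NI1, 2248 beside 18588 in NI2, 16962 beside 267135 in NI3 and none in M4 or M5. Whether reads split between these copies lie behind the lower share in M6 was not tested. The log2 read counts of the 14 enzymes correlated between any pair of the 6 libraries with r from 0.82 to 0.99, a description over genes that share a library. Try4 had 0 reads in M4 where 36.4 would match NI3, while the near-identical Try5 had 24. M1, M2 and M3 held too few enzyme reads to enter these ranges, and the ratios given for them elsewhere rest on few reads.

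**Figure D3:**
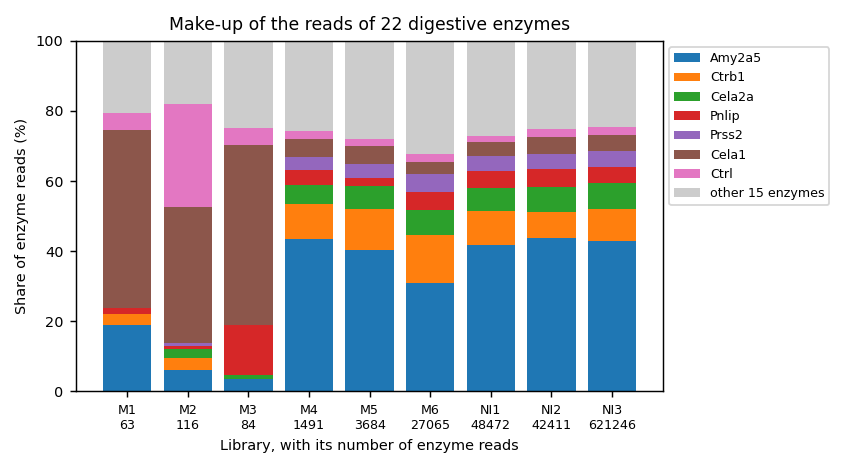
Share of the reads of the 22 enzymes held by each named enzyme (stacked, in percent) in each library, with the number of enzyme reads under the library name. Amy2a5 took 31.0% to 43.8% in M4 to NI3, whereas Cela1 took 38.8% to 51.2% in M1 to M3, where at most 116 reads were counted.

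Granule and secreted proteins followed the enzymes with some exceptions. Their sum was 0.322, 0.778 and 0.491 CPM in M1, M2 and M3, 4.28, 9.85 and 30.9 in M4, M5 and M6, and 35.7, 35.1 and 561 in NI1, NI2 and NI3. M6 thus came near NI1 and NI2, and NI3 stood apart again. Syncollin (Sycn) had 1 read over M1, M2 and M3, 0.793, 0.516 and 3.80 CPM in M4, M5 and M6, and 5.57, 8.20 and 98.2 CPM over the islet libraries. Gp2, the major glycoprotein of the granule membrane, had no read in M1, M2 or M3 and between 0.369 CPM in M5 and 52.9 in NI3 elsewhere. Zg16, another granule protein, had 1, 3 and 4 reads in M1, M2 and M3 and between 0.436 CPM in M4 and 112 in NI3 elsewhere.

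Reg1 and Reg2, neighbouring genes of the regenerating family on chromosome 6, parted from each other. Reg1 was at 0.753, 0.884 and 4.03 CPM in M4, M5 and M6 and at 4.85, 5.76 and 161 CPM in NI1, NI2 and NI3, much as the enzymes. Reg2 was at 0.396, 1.52 and 6.81 CPM in M4, M5 and M6 and at 4.75, 0.317 and 9.15 CPM in the islets. M6 and NI1 therefore held more Reg2 than NI2 did. At the NI3 ratio to enzymes, 16.1 reads would have been counted in M6 and 28.8 in NI1, against 387 and 277 observed, while NI2 had 13 reads against 25.2. Dmbt1, a secreted scavenger protein also made by ductal and other epithelia, had 51 reads in M2 and 225 in M5, where 0.822 and 26.1 matched the ratio.

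Of the transcription factors, Ptf1a and Rbpjl had no read in M1 to M4, while Bhlha15 and Nr5a2 had reads in all 9 libraries. Ptf1a had no read in M1 to M5, 1 read in M6, 2 in NI1, 1 in NI2 and 31 in NI3, or 0.768 CPM in NI3. At the ratio of Ptf1a to enzymes in NI3, 1.35, 2.42 and 2.12 reads would have been counted in M6, NI1 and NI2, and under 1 in each of M1 to M5. Each observed count had a Poisson interval that held that value, the one for M6 reaching from 0.0253 to 5.57 reads. Whether Ptf1a differed from the enzymes in these libraries was not detectable at this depth. Rbpjl, its partner, had no read in M1 to M4, then 7 in M5, 20 in M6, 18 in NI1, 8 in NI2 and 61 in NI3. The matching values at the NI3 ratio were 0.362, 2.66, 4.76 and 4.16 for M5, M6, NI1 and NI2. For M5, M6 and NI1 the lower limits of the Poisson intervals, 2.81, 12.2 and 10.7 reads, lay above them, and for NI2 the interval of 3.45 to 15.8 held 4.16. Neither gene entered the tests.

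Bhlha15 and Nr5a2 did not follow the enzymes. Bhlha15 was at 63.1, 53.5 and 20.8 CPM in M1, M2 and M3, at 40.7, 18.4 and 50.7 CPM in M4, M5 and M6, and at 47.6, 97.0 and 87.6 CPM in NI1, NI2 and NI3. M1, with 63 enzyme reads, thus held more Bhlha15 than NI1 with 48472. The tumors overlapped the islets through NI1 alone, the library that goes against its label, and each tumor was below NI2 and NI3. Without NI1, all tumors against islets gave a log2 fold change of −1.17 ± 0.42 for Bhlha15 (adjusted p = 0.118, edgeR). Nr5a2 was at 2.86, 0.382 and 1.60 CPM in M1, M2 and M3, at 3.01, 0.958 and 2.20 in M4, M5 and M6 and at 2.23, 1.73 and 2.58 in the islets, so that M4 was highest. Against islets, functional tumors gave a log2 fold change of −0.76 ± 0.48 for Bhlha15 (adjusted p = 0.396) and −0.44 ± 0.72 for Nr5a2 (adjusted p = 0.760) in edgeR. The enzyme level per unit of Bhlha15 level was 0.0201 to 0.0735 in M1 to M3, 1.45 to 9.39 in M4 to M6 and 17.4, 10.7 and 176 in NI1, NI2 and NI3. Over M4 to NI3 the ratio to enzyme reads ranged over 121-fold for Bhlha15 and 305-fold for Nr5a2. Per kilobase, the level in NI3 was 25.1 CPM for Bhlha15, 0.437 for Nr5a2, 0.509 for Ptf1a and 0.264 for Rbpjl.

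**Figure D4:**
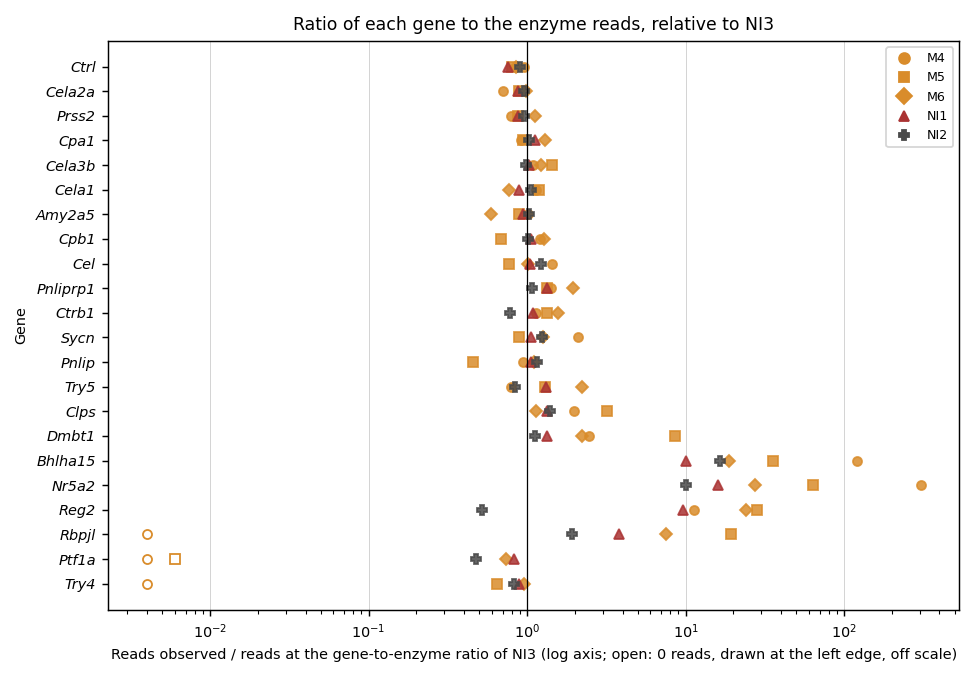
Reads observed in M4, M5, M6, NI1 and NI2 over the reads expected at the gene-to-enzyme ratio of NI3 (log axis), for the 18 genes with at least 20 reads in all 6 libraries and for Reg2, Rbpjl, Ptf1a and Try4; open symbols at the left edge mark 0 reads. Most enzymes lie near 1, while Nr5a2 and Bhlha15 in M4 lie at 305 and 121.

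Erp27, Aqp8 and Aqp12 were low throughout. Erp27, an endoplasmic reticulum protein, had between 3 and 40 reads outside NI3, which had 164, and the functional tumors held 4, 6 and 9. Aqp8, a water channel, had no read in any tumor and 3, 1 and 11 in NI1, NI2 and NI3. The related Aqp12 had no read in M1, M2, M3 or M5, 10 in M4, 1 in M6, 2 each in NI1 and NI2 and 57 in NI3.

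Another 35 genes expressed in acinar cells were read beside the list, of which 21 were tested. None was called in any of the 4 comparisons by edgeR. Between all tumors and islets, 8 of the 21 had an unadjusted p under 0.05 and were lower, against 9.14% of all tested genes, and 1 was higher. The median log2 fold change was −0.95, against 0.03 over all tested genes. The 3 with the highest mean level were Syt7, a synaptotagmin, Xbp1, a factor of the unfolded protein response, and Rab3d, a GTPase of secretory granules. These are used by endocrine cells as well. Their log2 fold changes were 0.41 ± 0.18 (adjusted p = 0.249), −0.68 ± 0.28 (adjusted p = 0.219) and −1.05 ± 0.25 (adjusted p = 0.137, edgeR). Of the other Reg genes, Reg3a, Reg3b, Reg3d, Reg3g and Reg4, none was tested, and the highest mean level was that of Reg3d, Reg3b and Reg3a. Reg3d had 122 reads in NI3 and at most 19 elsewhere, Reg3b had 22 in M6, 28 in NI1 and 73 in NI3, and Reg3a had 8 in M5, 19 in M6, 13 in NI1 and 8 in NI3.

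Markers of duct cells, the other exocrine cells of the pancreas, did not rank the libraries as the enzymes did. Summed over 12 ductal markers the level was between 367 and 838 CPM in tumors and between 480 and 586 CPM in islets, with at most 1 marker at 0 in a library. The 9 beta cell markers summed to between 18407 and 116760 CPM in the tumors, 121927 in NI1, 327608 in NI2 and 365133 in NI3. Ins2 was lower in every tumor than in every islet library (log2 fold change −2.11 ± 0.99, adjusted p = 0.270), and so were Ins1 (−1.89 ± 0.71, 0.196) and Gcg (−6.57 ± 1.21, 0.0704, edgeR). Of all tested genes, 3.17% were lower in this way. For Ins2 and Ins1 the gap to NI1 was narrow. Ins2 was at 88719 CPM in M6 and 88895 in NI1, and Ins1 at 21305 in M1 and 21653 in NI1. Gcg, the glucagon of alpha cells, was at 787, 2312 and 14256 CPM in NI1, NI2 and NI3 and at no more than 239 CPM in a tumor, so NI3 was the highest library for it as for the enzymes. Sst, Chga and Pdx1 overlapped between the groups, with −1.01 ± 1.78, −0.67 ± 0.67 and 0.44 ± 0.20. Cdk5r1 differed by 1.32 ± 0.87 (adjusted p = 0.416) with NI1 among the islets and by 4.06 ± 0.51 (adjusted p = 0.00367) without it. Without NI1, Gcg was at −7.09 ± 1.19 (0.0113), Ins2 at −2.45 ± 1.07 (0.181) and Ins1 at −2.26 ± 0.74 (0.0923). Markers of lymph node and spleen summed to between 1.21 and 14.7 CPM in the tumors and 65.3, 127 and 76.4 CPM in NI1, NI2 and NI3. The 6 fibroblast markers were between 430 and 1246 CPM, the 4 endothelial markers between 282 and 876 CPM and the 4 macrophage markers between 105 and 665 CPM over the libraries. The 5 lymphoid markers were between 18.4 and 114 CPM in the tumors and between 157 and 186 CPM in the islets. The part of any of these cells in the enzyme levels was not tested.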

How the data were processed

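Single-end 75-base reads from NEBNext Ultra libraries were trimmed by the authors with Trimmomatic 0.38 and quantified with salmon 1.4.0 on mm10. The values deposited are whole-number count estimates for each gene, unscaled, although the table is named TPM. The step from transcripts to genes is not given in the sources used here. Symbols were taken from GENCODE for GRCm38, and 253 of 54347 genes had none.

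The 15532 genes that reached 1 CPM in 3 or more libraries were tested in edgeR 4.0.16 (R 4.3.3) by quasi-likelihood after TMM scaling, tumors against islets as 2 groups and the other comparisons in a fit of 3 groups. Tests were two-sided, with Benjamini-Hochberg adjustment over all tested genes and a threshold of 0.05. DESeq2 1.42.0 and limma 3.58.1 (voom) were alternatives. The fits were tested on simulated counts. SE is the fold change over the square root of F. Poisson intervals reflect counting error alone, as no molecular identifiers were used. The members and gene lists were chosen with earlier results of these data known. Fold changes are printed for called members (up to 12 of smallest p), otherwise for the 4 highest and 4 lowest, for the transcription factors and, of other lists, for called genes or the 3 of highest mean level. Cela3b, Pnliprp2, Try4, Klk1 and Gp2 among the bounds, the single-library values and further ratios were chosen after their values were seen. Values of some genes of the wider lists are not reported here.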

Additional observations from a re-analysis of the deposited data

Results flagged for a closer look

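Among the 6 tumors, M6 stood apart from the other 5 in 18 of 24 measures examined, by the gap to the nearest tumor relative to the whole range (Dixon's criterion at 95%). Chance marks about 1 group in 20 only where all values come from a single normal population. Here the criterion was applied to CPM without logs over functional and non-functional tumors together, where the highest library is easily marked. The 18 therefore describe M6 and cannot be set against that rate. These genes also share a library and rise together, so the 18 are not separate results. In M6 the summed enzyme level was 476 CPM and the summed granule level 30.9 CPM. Amy2a5 was at 147 CPM, Ctrb1 at 65.0, Cela2a at 34.4, Cpa1 at 26.5, Prss2 at 24.7, Cpb1 at 22.05, Pnliprp1 at 19.95, Cel at 17.2, Cela1 at 16.6, Cela3b at 13.7, Try4 at 10.9 and Ctrl at 9.68 CPM. The granule and secreted proteins Reg2, Reg1 and Sycn were at 6.81, 4.03 and 3.80 CPM. Ptf1a was at 0.0176 CPM, which is 1 read against 0 in the other tumors and under the floor. M6 is also the library to which the one labelled NI1 was most alike. The cause was not tested.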

How the results depend on the processing

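No member was called higher in any comparison under any alternative run. The count called lower moved most. Between all tumors and islets it was 1 with no filter (0.310% of all genes lower), 18 in the fit with 3 groups, 16 without M6 and NI1, and 0 to 6 with single libraries left out. Functional tumors against islets gave 28 with no filter (37 then tested, 0.763% of all genes lower), 20 by library totals (0.509%), 3 by DESeq2 (5.03%), 0 by limma-voom (0.0579%), 17 without M6 and NI1, and 0 to 23 with single libraries left out, against 11. Non-functional tumors against islets gave 1 by DESeq2, 14 without M6 and NI1 and 0 to 4 with single libraries left out, and functional against non-functional tumors 3 by DESeq2. DESeq2 left out of its tests 21 to 23 of the 26 members, which had no p and count as no lost call. Without NI3 the members with an unadjusted p under 0.05 fell to 2 between all tumors and islets and to 5 between non-functional tumors and islets. Filtering by group size, other scalings, removal of mitochondrial genes, and summing the copies of amylase and trypsinogen left each count within 1.5 times. Leaving out M6 and NI1 together and summing the whole clusters were chosen after seeing the data.

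Library totals alone moved the median log2 fold change of all genes to 0.25, 0.38 and 0.32 in the comparisons of all tumors with islets, functional tumors with islets and functional with non-functional tumors. The direction turned for genes that were never called. Nr5a2 ranged from −1.14 to 0.034 (without M2) in functional tumors against islets, from −0.47 to 0.286 (without M5) in non-functional tumors, where it was 0.048 without NI3, and from −1.05 to 0.119 (without M2) between tumor groups, where it was 0.038 without M4 and 0.051 by library totals. Reg2 ranged from −2.29 to 0.201 (without NI3) in non-functional tumors, and Bhlha15 from −0.029 (without M5) to 0.670 between tumor groups. The cause was not tested. Of the other values of single genes, 678 kept direction and side of the threshold, 75 lost a call and 15 gained one.

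Replicate numbers are shared between functional tumors and islets, but same-numbered libraries did not deviate together (correlations of −0.05, 0.03 and −0.16), so the numbers do not pair the samples. With the number as a block 13 members were called lower (0.161% of all genes), and 10 in the same 6 libraries without it (0.573%). The 3 reads used as floor limit what could be read in M1, M2 and M3.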

Other observations

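Copies of the amylase and trypsinogen clusters outside the list gave uneven counts between libraries. Amy2a4 had 5145 reads in M6, 3322 in NI1, 2248 in NI2 and 16962 in NI3 and none in M1 to M5. Amy2a1 had 26 reads in M4, 667 in NI2 and none in the other 7 libraries. The trypsinogen gene 2210010C04Rik had no read in M1, M2 or M3, 70, 120 and 1362 in M4, M5 and M6, and 2078, 1455 and 24649 in NI1, NI2 and NI3. These rows were looked at after the values of their neighbours were seen.

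Gata4, an endodermal transcription factor of the wider list, had 337 reads in M2, 63 in NI3 and at most 11 in the others. It was singled out after its values were seen.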
